A study of Mus musculus with 8 samples.

Results

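Resistant organoid cultures of 2 mouse liver tumour lines were compared for how far each stood from its own parental culture. For every gene, the resistant minus parental difference of line SNU-6624 was subtracted from that of line SNU-6625, on the scale of log2(CPM + 1), where CPM is a count scaled to the total count of its library in megacounts. The result is called the divergence: negative values mark genes that stood lower in resistant SNU-6625, relative to its parental library, than in resistant SNU-6624. Genes described here were selected on these same differences, so the values are a description. The comparison rests on 4 of 8 libraries, the parental and resistant library of each line. Of 45777 genes in the files, 13202 passed a minimum mean of 1 CPM over these 4 libraries, and the other genes were not used.

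The organoids are 3-dimensional cultures labelled as hepatocellular carcinoma that followed metabolic steatohepatitis. All libraries carry the genotype label WT. The parental cultures are untreated, and the resistant cultures are labelled as lenvatinib-resistant with the control label for treatment, so they are not labelled as under the drug at harvest. Lenvatinib-treated libraries of the same lines and parental libraries of lines SNU-6621 and SNU-6622 give the frame. No dose, duration or time off the drug is given in the labels used here. Each line and condition holds 1 library, and nothing in the labels says that the cultures came from separate animals or that resistance was selected more than once per line. No difference below was tested, and no p-value is given, because a comparison of single libraries has no replicate check. The spread over the 4 parental lines is printed as a yardstick.

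Lenvatinib blocks several receptor tyrosine kinases, among them the receptors for VEGF and FGF, RET, KIT and PDGF receptor alpha. Cells that keep growing under such a drug can do so through other receptors, through altered differentiation or through slow cycling. A dividing cell first switches on the genes of DNA replication through E2F factors, and later the genes of mitosis through MYBL2, FOXM1 and the MuvB complex, which bind different promoter elements.

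Total counts of the 4 libraries ran from 49.0 to 61.0 M (megacounts), so a floor of 3 counts equals 0.0492 to 0.0612 CPM. Mitochondrially encoded genes held 5.07% of counts for resistant SNU-6624 and 6.08% for resistant SNU-6625, against 6.97% to 8.53% in the 4 parental libraries. The 10 most abundant genes held 6.95% and 6.98% of counts in the resistant libraries and 8.42% to 9.90% in the parental ones. Of the biliary epithelial markers, 8 of 8 passed the filter, and their summed level was 12094 CPM for resistant SNU-6624 and 9604 CPM for resistant SNU-6625, against 7109 to 8766 CPM in the parental libraries. Hepatocyte markers summed to 8.65 and 51.2 CPM, against 22.6 to 123.8 CPM in the parental libraries. The label of hepatocellular carcinoma thus stands beside low hepatocyte marker sums. Squamous genes summed to 14109 and 7649 CPM in the resistant libraries, so the biliary markers do not name a single lineage. Of 23 biliary and progenitor genes kept, 12 were above and 4 below all 4 parental libraries in resistant SNU-6625 (23.1% and 43.8% of all genes). Cftr and Aqp1 were among those below. Lymphocyte and red blood cell markers summed to at most 1.0 CPM in every library, and fibroblast markers to 1.0 and 0.3 CPM in the resistant libraries. In bulk RNA, fewer cells of a type and less RNA per cell cannot be told apart.

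The culture of SNU-6625 stood much further from its parental library than that of SNU-6624. In resistant SNU-6625, 1967 genes (14.9% of those kept) were lower by at least 2-fold and 935 (7.08%) were higher. In resistant SNU-6624 these were 443 (3.36%) and 324 (2.45%). The SD over all genes of the resistant minus parental difference was 0.99 in SNU-6625 and 0.52 in SNU-6624, on the log2(CPM + 1) scale. A divergence of at least 1 in size was seen for 2510 genes (19.0%), with 1791 (13.6%) lower and 719 (5.45%) higher in SNU-6625. Of the divergent genes, 28.6% were thus on the higher side. This split depends on the scaling: the median divergence over all genes was -0.21 with plain totals and -0.0014 with TMM factors, and TMM put 45.0% on the higher side. Values below are on plain totals and can be read against a median of 0.03 over all genes in SNU-6624 and -0.18 in SNU-6625.

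**Figure D1:**
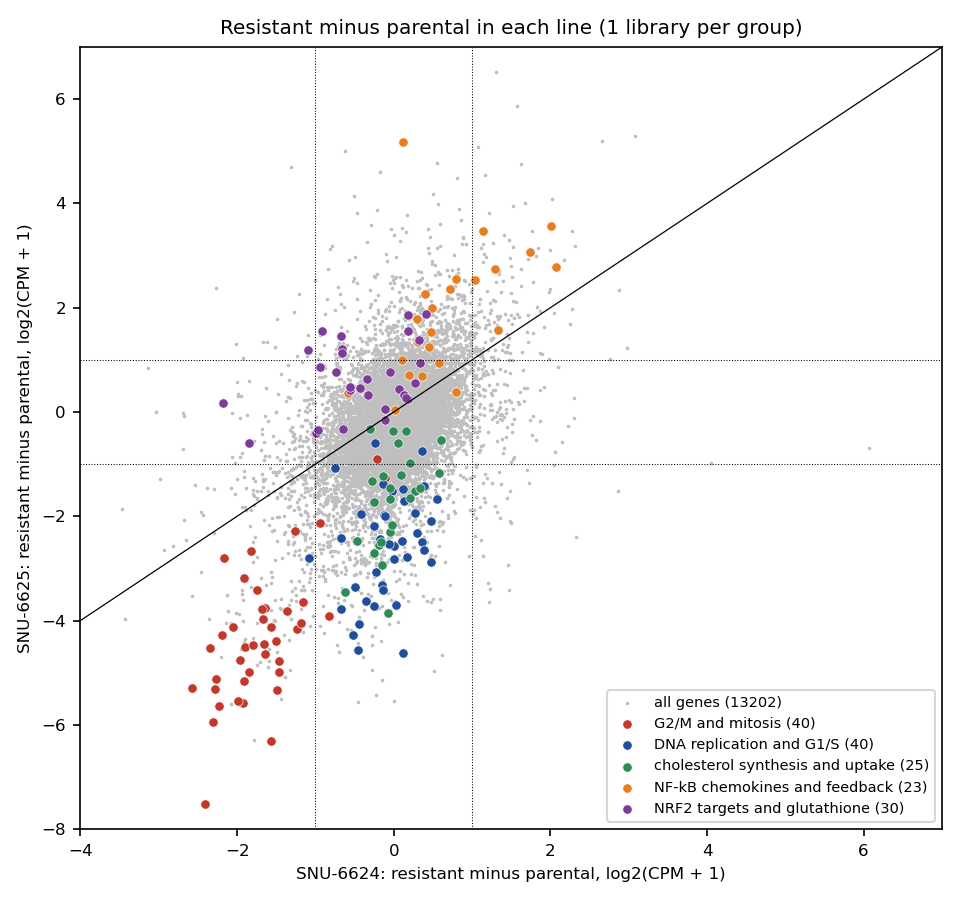
Resistant minus parental difference per gene on the log2(CPM + 1) scale, with line SNU-6624 on the x axis and SNU-6625 on the y axis; grey points are the 13202 genes, coloured points are members of 5 gene lists, dotted lines mark 2-fold and the solid line marks equal differences. Mitosis genes lie low on both axes and replication genes low on the y axis only.

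Most of the divergence sat in the resistant libraries and not in the parental ones. Of the 2510 genes, 1572 had a gap of at least 2-fold between the resistant libraries and less than that between the parental libraries. The reverse held for 222 genes, both gaps passed 2-fold for 158, and neither did for 558. Over all 13202 genes the gap between the lines passed 2-fold for 2427 genes in the resistant pair and 686 in the parental pair. The SD of that gap was 0.88 and 0.53.

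**Figure D2:**
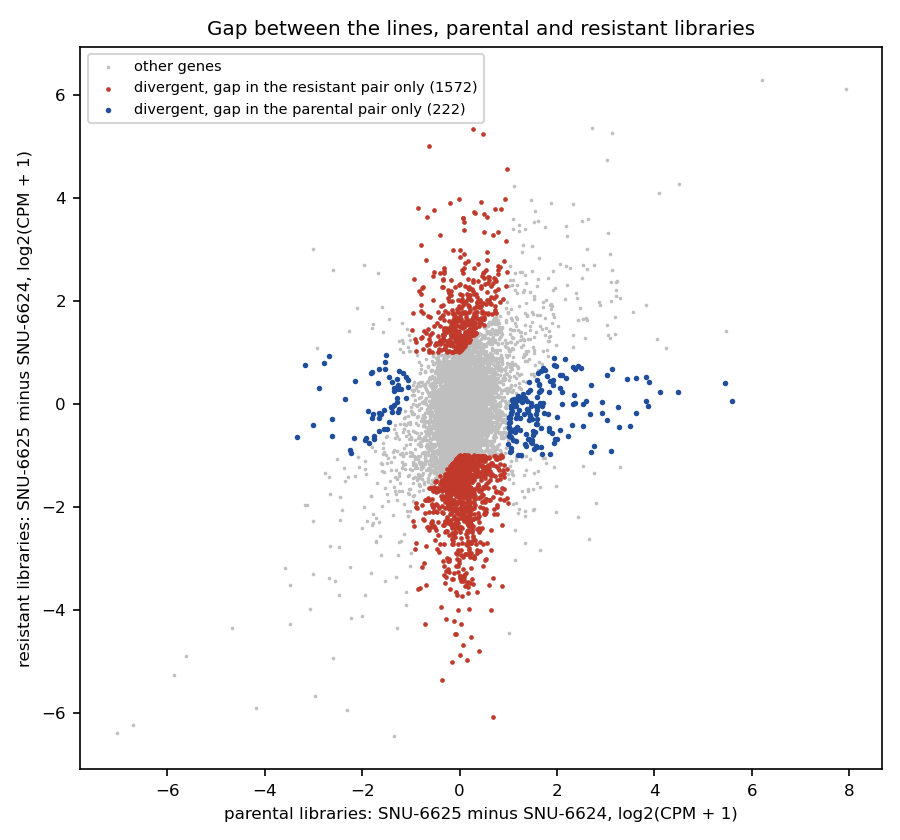
Gap between the lines per gene, SNU-6625 minus SNU-6624 on the log2(CPM + 1) scale, in the parental libraries (x axis) and in the resistant libraries (y axis). The 1572 red genes spread along the y axis and the 222 blue genes along the x axis.

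Genes were also sorted by where they differed. A gene was placed in 1 culture if its difference there reached 2-fold and stayed under 0.5 on the log2 scale in the other. By this rule 1141 genes (8.64%) were lower and 460 (3.48%) were higher in resistant SNU-6625 alone, and 59 (0.447%) were lower and 81 (0.614%) higher in resistant SNU-6624 alone. In both cultures 305 genes (2.31%) were lower and 148 (1.12%) higher, and 52 (0.394%) were past 2-fold in opposite directions. The limit is a convention: Rrm2, at -0.46 in SNU-6624, counts as lower in SNU-6625 alone, and Clspn, at -0.52, does not.

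Of 47 gene lists, those of cell division had the largest median divergence in size, -2.76 for mitosis and -2.57 for replication. Both cultures had less mitosis transcript than their parental libraries, whereas the genes of DNA replication were low in resistant SNU-6625 only. Of 40 genes of G2 phase and mitosis, 36 were lower by 2-fold in SNU-6624 (3.36% of all genes were) and 39 in SNU-6625 (14.9% of all genes). The medians were -1.71 and -4.43. Of 40 genes of DNA replication and the G1/S step, 1 was lower by 2-fold in SNU-6624 and 38 in SNU-6625. Their medians were -0.08 and -2.49, and 32 of them met the rule for lower in SNU-6625 alone, as did 8.64% of all genes. The rule that chose this comparison used these same values, so the counts describe the libraries.

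The median level of the mitosis list, on the log2(CPM + 1) scale, was 3.70, 4.12, 5.21 and 5.31 in the parental lines, in order of line number. It was 3.43 in resistant SNU-6624, just under the lowest parental line, and 0.77 in resistant SNU-6625. The replication list had 3.37, 3.31, 4.29 and 4.41 in the parental lines. Resistant SNU-6624, at 4.05, lay inside that range, and resistant SNU-6625, at 1.87, lay below it. Single genes followed the medians: 33 of 40 mitosis genes were below all 4 parental libraries for resistant SNU-6624 and 40 for resistant SNU-6625, where 23.3% and 43.8% of all genes were. For the replication genes these were 0 and 36 of 40.

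**Figure D3:**
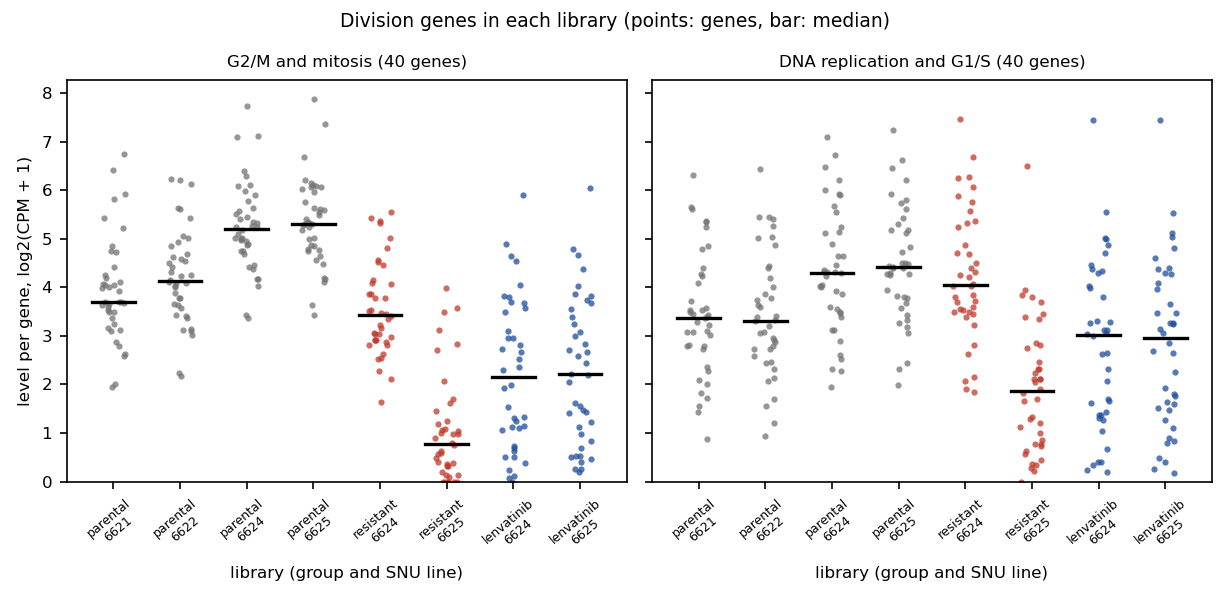
Level of each gene (points) and list median (bars) on the log2(CPM + 1) scale in the 8 libraries, for the 40 mitosis genes (left) and the 40 replication genes (right). Resistant SNU-6625 is the lowest library in both panels, with medians of 0.77 and 1.87, and resistant SNU-6624 is level with the parental libraries in the right panel only.

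The lenvatinib-treated libraries lay between. They share the parental libraries with the resistant ones, so their differences are set beside the others as values only. Median differences were -3.17 and -3.11 for the mitosis list and -1.31 and -1.40 for the replication list, in SNU-6624 and SNU-6625. Resistant SNU-6625 was below both lenvatinib libraries for 32 of 40 mitosis genes and 34 of 40 replication genes, as were 58.3% of all genes.

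Gene positions that follow are those of RefSeq on GRCm38.p6, the same primary assembly as the mm10 build of the authors. Mki67 (chr7:135689784-135716450) encodes a protein that coats mitotic chromosomes and is used to count dividing cells. It stood at 211.4 CPM in parental and 38.98 CPM in resistant SNU-6624, and at 233.4 and 0.279 CPM in SNU-6625. Its divergence of -5.11 was the largest of the mitosis list. Top2a, the topoisomerase that untangles sister chromatids, had 138 and 45.98 CPM in SNU-6624 against 162.6 and 1.05 CPM in SNU-6625. Ccnb1, the cyclin of mitotic entry, had 39.1 and 9.56 CPM in SNU-6624. In SNU-6625 it went from 47.1 CPM to 0 counts, at least 958.9-fold lower against the floor of 3 counts. Foxm1, a factor that drives the mitosis genes and was chosen after its values were seen, had 28.3 and 8.35 CPM in SNU-6624 and 31.2 and 1.36 CPM in SNU-6625.

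Mcm5 (chr8:75109468-75128439), a subunit of the replicative helicase, had 33.8 CPM in parental and 36.8 CPM in resistant SNU-6624. In SNU-6625 it had 35.3 CPM and 0.475 CPM, 1731 and 29 counts. Its differences were 0.12 and -4.62, so the helicase gene was at its parental level in 1 culture and 74.3-fold lower in the other. Rrm2, which makes the subunit that limits deoxynucleotide supply, had 104.6 and 76 CPM in SNU-6624 and 96.8 and 3.13 CPM in SNU-6625. Chaf1a, which loads histones behind the fork, had differences of 0.03 and -3.70. Clspn, a replication checkpoint gene, had 15.1 and 10.3 CPM in SNU-6624 and 18.4 CPM and 0 counts in SNU-6625, at least 374-fold lower. E2f1, the factor that switches on this list and was chosen after its values were seen, had differences of 0.36 and -2.50.

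The promoters of the 2 genes with the largest divergence in each list are shown because the lists behaved differently in SNU-6624. Each is the 250 bases before the start that a RefSeq promoter table of build GRCm38.p6 uses, 5′ to 3′ on the strand of the gene. That start can lie inside the gene as annotated: the last 71 bases for Mki67, 10 for Top2a and 41 for Mcm5 are within the gene span, and none for Rrm2. Capitals mark 3 elements searched on both strands: the core of the cell cycle homology region, TTTGAA or TTTAAA, the E2F site, TTCCCGC or TTGGCGC or TTCGCGC, and the CCAAT box, CCAAT. Mki67 is at chr7:135716380-135716629 and Top2a at chr11:99024190-99024439, both on the minus strand; Mcm5 is at chr8:75109259-75109508 and Rrm2 at chr12:24708004-24708253, both on the plus strand.
Mki67: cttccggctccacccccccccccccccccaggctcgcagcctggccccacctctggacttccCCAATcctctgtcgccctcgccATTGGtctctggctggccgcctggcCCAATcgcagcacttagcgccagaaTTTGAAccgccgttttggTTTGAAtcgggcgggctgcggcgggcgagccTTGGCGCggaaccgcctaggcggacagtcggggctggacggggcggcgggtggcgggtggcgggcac
Top2a: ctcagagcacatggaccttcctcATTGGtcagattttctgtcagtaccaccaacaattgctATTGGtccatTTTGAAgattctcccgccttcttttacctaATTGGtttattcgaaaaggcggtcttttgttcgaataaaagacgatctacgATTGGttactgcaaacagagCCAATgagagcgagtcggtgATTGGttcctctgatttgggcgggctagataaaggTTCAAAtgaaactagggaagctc
Mcm5: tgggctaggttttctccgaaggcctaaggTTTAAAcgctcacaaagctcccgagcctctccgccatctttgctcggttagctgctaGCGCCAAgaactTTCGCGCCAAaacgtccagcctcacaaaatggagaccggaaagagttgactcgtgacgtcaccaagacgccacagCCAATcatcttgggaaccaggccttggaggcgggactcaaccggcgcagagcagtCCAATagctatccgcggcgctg
Rrm2: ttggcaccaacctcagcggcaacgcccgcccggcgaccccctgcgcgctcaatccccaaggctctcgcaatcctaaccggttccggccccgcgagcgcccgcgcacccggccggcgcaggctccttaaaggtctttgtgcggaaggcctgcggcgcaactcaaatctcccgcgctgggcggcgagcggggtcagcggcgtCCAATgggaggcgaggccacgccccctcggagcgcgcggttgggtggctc

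The Mki67 window holds 2 cores of the homology region, 1 E2F site and 3 CCAAT boxes. Top2a has 2, 0 and 6 of them, Mcm5 1, 3 and 2, and Rrm2 0, 0 and 1. In Mcm5 the last 2 E2F matches overlap and read as 1 run of capitals. Over the lists, with 33 mitosis genes and 32 replication genes matched by symbol in the table (35 and 36 promoters), the homology core was in 51.4% of mitosis and 22.2% of replication promoters. The E2F site was in 14.3% and 50.0%, and the CCAAT box in 80.0% and 69.4%. Among all 32851 promoters of the table the shares were 25.2%, 6.69% and 33.8%. Among promoters of the genes that passed the filter they were 17.8%, 11.8% and 35.6%. These matches are letters in a window and not measured binding.

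The list of D cyclins, CDKs and CDK inhibitors had a median divergence of -0.47, smaller in size than those of mitosis and replication, with members on both sides. Of 26 genes of the D cyclin, CDK and CDK inhibitor list, 8 were lower and 4 higher by 2-fold in SNU-6625, against 1 and 1 in SNU-6624. Over all genes 14.9% were lower and 7.08% higher in SNU-6625, and 3.36% and 2.45% in SNU-6624, so the SNU-6624 counts are near the background. The inhibitor genes Cdkn2c and Cdkn2d, which are themselves E2F-responsive, had differences of -2.44 and -2.71 in SNU-6625 and -0.78 and -0.93 in SNU-6624. Cdkn1a, the CDK inhibitor induced by p53 and chosen after its values were seen, had 232.3 and 369.4 CPM in SNU-6624 and 135 and 425.3 CPM in SNU-6625, where parental lines ran from 135 to 357.9 CPM. Of 25 p53 targets, 1 was higher by 2-fold in SNU-6624, Plk2, and 11 in SNU-6625, with medians of 0.41 and 0.78. The resistant libraries were closer to each other than these counts: 16 of the 25 genes exceeded every parental library for SNU-6624 and 17 for SNU-6625. Their list levels were 7.27 and 7.43, where parental lines ran from 6.51 to 7.06. The median divergence was 0.29, and 0.0017 when both cultures were set against the mean of the 4 parental libraries. The proapoptotic gene Pmaip1 had 69.9 and 86.1 CPM in SNU-6624 and 67.6 and 263.6 CPM in SNU-6625. Replication-type histone genes did not follow the replication list. The 7 of 43 that passed the filter in these poly(A) libraries had medians of -0.90 for SNU-6624 and -0.22 for SNU-6625, and near-identical histone copies may share reads.

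Cholesterol synthesis followed the replication genes in being low in 1 culture. These enzymes build sterols from acetyl-CoA and are switched on together when cell sterol is short. Of 25 genes of cholesterol synthesis and uptake, 0 were lower by 2-fold in SNU-6624 (3.36% of all genes were) and 19 in SNU-6625 (14.9%). Their medians were -0.04 and -1.52, and 17 met the rule for lower in SNU-6625 alone, as did 8.64% of all genes. With TMM factors the SNU-6625 median was -1.32. The lenvatinib-treated libraries had medians of -1.85 and -1.75, so in SNU-6624 the resistant culture was near its parental level while the treated one was not.

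Acat2 (chr17:12943042-12960725), which makes the first intermediate of the pathway, had 137.1 and 130.5 CPM in parental and resistant SNU-6624 and 141.8 and 8.85 CPM in SNU-6625. The lowest parental library had 43.7 CPM, so resistant SNU-6625 lay below all of them. Mvd, the mevalonate decarboxylase, had differences of -0.63 and -3.45, and Nsdhl, a later sterol enzyme, -0.25 and -2.70.

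Fatty acid synthesis genes stood between. Of 25 kept, 4 were lower by 2-fold in SNU-6624 (3.36% of all genes were) and 12 in SNU-6625 (14.9% of all genes). Their medians were -0.08 and -0.93. Scd2, a desaturase, had 2912 and 2275 CPM in SNU-6624 and 3267 and 457.6 CPM in SNU-6625. Acaca, the cytosolic acetyl-CoA carboxylase, had differences of 0.11 and -1.71. Fads2, a polyunsaturated fat desaturase, was lower by over 2-fold in both, at -1.19 and -3.41. Tfrc, the transferrin receptor, which dividing cells use for iron, had -0.02 and -2.16.

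Genes of the NF-kB list differed in the other direction. NF-kB, a factor of innate immune signalling, induces chemokines that call in neutrophils and genes that restrain its own signal. Of 23 NF-kB chemokine and feedback genes kept of 29, 7 were higher by 2-fold in SNU-6624 (2.45% of all genes were) and 16 in SNU-6625 (7.08% of all genes), and none was lower by 2-fold in either. The medians were 0.49 and 1.78, against -0.58 and -0.61 in the lenvatinib-treated libraries. The parental lines differ in these genes, with list levels from 4.71 in SNU-6624 and 4.84 in SNU-6625 to 6.22 in SNU-6621. Against the mean of all 4 parental libraries the medians were 0.047 and 1.14, and 4 and 15 of the 23 genes were above every parental library. For resistant SNU-6625, 23.1% of all genes were, and for resistant SNU-6624 that share was not taken. Of secreted and arrest-associated factors, 7 of 20 kept were higher by 2-fold in SNU-6624 and 12 in SNU-6625. Lower by 2-fold were 2 and 3, against 3.36% and 14.9% of all genes. The median level of that list was 4.83 and 5.25 in the resistant libraries, inside the parental range of 4.55 to 6.14. Against the mean of the 4 parental libraries its SNU-6624 median was -0.13 in place of 0.54. Cxcl3 of the NF-kB list, and Csf2 and Mmp13 of this one, were under 1 CPM in the other libraries of the comparison. They passed the filter through resistant SNU-6625 only, so their place among the higher genes was set by the filter.

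Cxcl3 (chr5:90786101-90788093), a neutrophil chemokine, had 0.381 and 0.495 CPM in SNU-6624 and 0.673 and 59.4 CPM in SNU-6625, 88.3-fold. Parental SNU-6621, the highest of the other libraries, had 2.33 CPM, and the lenvatinib-treated libraries had 0.141 and 0.221 CPM. Cxcr2, the receptor for this class of chemokine, had 0.388 and 24 CPM in SNU-6625 and 0.828 and 1.58 CPM in SNU-6624. Cxcl5, a related chemokine chosen after its values were seen, was higher in both, at 1.74 and 3.07, but parental SNU-6621 held 602 CPM, more than the 230.5 CPM of resistant SNU-6625. Against the mean of the 4 parental libraries, Cxcl5 in resistant SNU-6624 was at -0.43. Relb, a subunit of NF-kB, had 33.6 CPM for resistant SNU-6624 and 136.9 CPM for resistant SNU-6625, with 25.2 and 27.6 CPM in their parental libraries.

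Ptgs2 (chr1:150100031-150108234), the inducible enzyme of prostaglandin synthesis, had 22.1 and 19.4 CPM in SNU-6624 and 30.99 and 776 CPM in SNU-6625. The parental range was 22.1 to 74.3 CPM and the lenvatinib-treated libraries held 73.6 and 134.6 CPM. Resistant SNU-6625 was therefore 25.04-fold above its parental library and above every other library. Csf2, the cytokine GM-CSF, had 0 counts in parental and 0 in resistant SNU-6624, 0.245 CPM in parental SNU-6625 and 12.01 CPM in resistant SNU-6625. Mmp13, a collagenase, had 0.184 and 16.4 CPM in SNU-6625 and 0.348 and 0.158 CPM in SNU-6624, and parental SNU-6621 had 9.44 CPM. Mmp7, another matrix protease, differed the other way, at -0.43 and -3.06. The myeloid markers of the frame, mostly Cd14 and Cd68, summed to 87.8 CPM for resistant SNU-6624 and 156.5 CPM for resistant SNU-6625, inside the parental range of 57.8 to 163.6 CPM.

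Some growth factor receptor and cell anchoring genes were higher in resistant SNU-6625, though most members of these lists did not pass 2-fold. Egfr, the receptor for EGF and TGF-alpha, had 71.4 and 98.9 CPM in SNU-6624 and 66.8 and 269.9 CPM in SNU-6625, with a parental maximum of 102 CPM. Its ligand gene Tgfa had 0.08 and 1.22, and its feedback inhibitor gene Errfi1 0.21 and 1.18. Of 15 genes of the EGFR family, MET and their ligands, 1 was higher by 2-fold in SNU-6624 and 6 in SNU-6625. Over all genes 2.45% and 7.08% were. Dusp4, a phosphatase that restrains ERK, had 0.16 and 2.21, with 1.51 and 1.96 in the lenvatinib-treated libraries. Fosl1, a factor induced by ERK, was higher in both cultures, at 1.76 and 3.48, while Fos was lower in SNU-6625 alone, at -0.02 and -1.38.

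Itga2, a collagen-binding integrin subunit, had 6.56 and 12.4 CPM in SNU-6624 and 11.5 and 183.7 CPM in SNU-6625. Parental SNU-6621 held 212.3 CPM, so the resistant SNU-6625 value was inside the range of the parental lines. Of 23 collagen, laminin and integrin genes kept of 35, 0 were higher by 2-fold in SNU-6624 and 8 in SNU-6625, and 1 and 3 were lower. Over all genes 2.45% and 7.08% were higher and 3.36% and 14.9% lower, so the lower counts are near the background.

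Few of the receptors that lenvatinib blocks were measurable here, and 3 of the listed targets passed the filter. Ret had 13.4 and 2.69 CPM in SNU-6624 and 6.98 and 3.38 CPM in SNU-6625. Fgfr3 had 8.86 and 2.08 CPM, and 2.71 and 1.97 CPM. The resistant libraries thus held close levels of Fgfr3, and its divergence of 1.36 lay in the gap between the parental libraries. Flt4 had differences of 0.66 and 0.60. Flt1, a VEGF receptor gene under the filter, had 4 counts in parental and 3.38 CPM in resistant SNU-6625, while parental SNU-6621 had 39.8 CPM.

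Efflux pumps and drug-metabolising enzymes were mixed. Abcc4, an exporter of organic anions, had 106.5 and 158.4 CPM in SNU-6624 and 129.1 and 840 CPM in SNU-6625, near the 816 and 846.6 CPM of the lenvatinib-treated libraries. Over the 9 pumps kept the medians were 0.11 and -0.16. Of 31 drug-metabolising enzymes, 5 were lower by 2-fold in SNU-6624 (3.36% of all genes were) and 17 in SNU-6625 (14.9% of all genes). The median divergence was -1.04. Against the mean of the 4 parental libraries it was -0.14. With 1 common reference the parental libraries cancel, so that value is only the gap between the resistant libraries. Reads of the Ces2 and Cyp2 families may be split among near-identical copies.

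**Figure D4:**
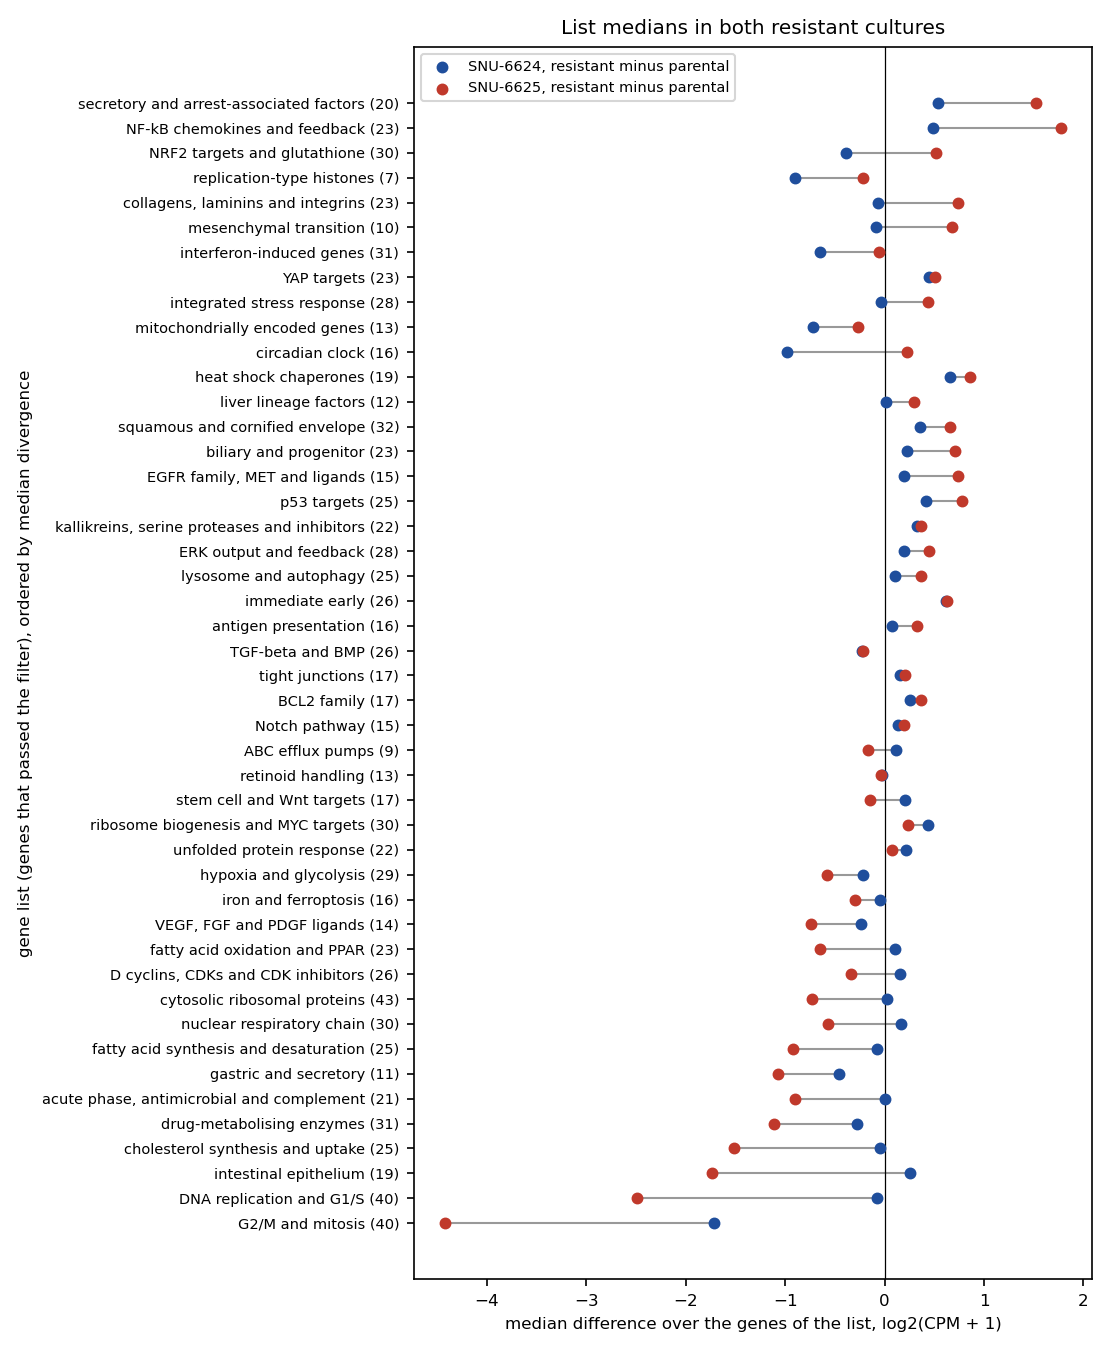
Median resistant minus parental difference on the log2(CPM + 1) scale (x axis) of each gene list with 7 or more genes kept (y axis, number of genes in brackets), in SNU-6624 (blue) and SNU-6625 (red), ordered by median divergence. Mitosis and replication genes are at the bottom, with red points at -4.43 and -2.49, and NF-kB and secreted factors at the top, at 1.78 and 1.52.

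Antioxidant genes of NRF2 had list medians on opposite sides of the parental level. NRF2 is the factor that induces glutathione synthesis and detoxifying enzymes under oxidative or electrophilic stress. Of 30 targets, 0 were higher and 3 lower by 2-fold in SNU-6624, against 9 and 0 in SNU-6625, with medians of -0.39 and 0.52. Over all genes 2.45% were higher and 3.36% lower in SNU-6624, and 7.08% and 14.9% in SNU-6625. In resistant SNU-6624, 12 of 30 were below all 4 parental libraries, and in resistant SNU-6625 19 of 30 were above them, where 23.3% and 23.1% of all genes were. The lenvatinib-treated libraries had medians of 1.28 and 1.24.

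Gclm and Gclc encode the subunits of the enzyme that limits glutathione synthesis. Gclm had 186.7 and 86.96 CPM in SNU-6624 and 122.3 and 281.6 CPM in SNU-6625, past 2-fold in opposite directions, but parental lines ran from 122.3 to 399 CPM. Gclc had 624.8 and 331 CPM, and 655.7 and 1931 CPM. Nqo1, a quinone reductase, had 142.6 and 30.6 CPM in SNU-6624 and 133.2 and 150.3 CPM in SNU-6625, so it was low in SNU-6624 alone. Abcc1, which exports glutathione conjugates, had -0.67 and 1.45, and Slc7a11, the cystine importer, -0.66 and 1.21. In each of these 5 genes the resistant SNU-6624 library was below its parental library and resistant SNU-6625 above it.

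Nqo1 is also a target of the aryl hydrocarbon receptor, for which no list was used. Cyp1a1, a cytochrome P450 induced by the receptor, had 50.7 and 12.2 CPM in SNU-6624 and 76.98 and 71.5 CPM in SNU-6625. Cyp1a2, its neighbour in the family, had 0.0993 and 0.237 CPM, and 1.14 and 28.2 CPM, so it was placed in resistant SNU-6625 alone. Ahrr, the repressor of the receptor, chosen after its values were seen, had 7.65 and 0.336 CPM, and 9.32 and 5.28 CPM.

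Fewer genes were placed in resistant SNU-6624 alone. Hspa1a and Hspa1b, near-identical inducible heat shock genes that may share reads, had the largest divergence among genes higher in that culture alone that had at least 20 CPM in 1 library. Hspa1a (chr17:34969359-34972156) had 120.3 and 594.4 CPM in SNU-6624 and 111.9 and 103.3 CPM in SNU-6625. The parental range was 92.3 to 120.3 CPM, and the lenvatinib-treated libraries had 305.8 and 231 CPM. Of 19 heat shock genes kept, 5 were higher by 2-fold in SNU-6624 (2.45% of all genes were) and 9 in SNU-6625 (7.08% of all genes). Their medians were 0.66 and 0.86. Hsph1 had 1.82 and 2.98, and Hspb1 0.86 and 3.68, with 227.2 CPM in parental SNU-6621 against 160.3 CPM in resistant SNU-6625. Slc16a3, the lactate exporter, was low in SNU-6624 alone, with 22.1 and 4.97 CPM against 52.7 and 65.3 CPM in SNU-6625. Akr1c14, a hydroxysteroid dehydrogenase, had 21.1 and 59.4 CPM in SNU-6624 and 0.224 CPM and 0 counts in SNU-6625, a gene that parental SNU-6625 hardly carried.

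More interferon-induced genes were lower than higher in resistant SNU-6624. Of 31 kept, 8 were lower by 2-fold there and none higher, against 3 lower and 3 higher in SNU-6625. Over all genes 3.36% were lower and 2.45% higher in SNU-6624, and 14.9% and 7.08% in SNU-6625. The SNU-6625 counts are thus near or under the background. Oas3, an RNA sensor, had 33.7 and 8.43 CPM in SNU-6624 and 31.3 and 29.9 CPM in SNU-6625. Mx1, an interferon-induced gene annotated here as a transcribed pseudogene, had 7.42 and 8.13 CPM, and 6.16 and 36.8 CPM. These genes vary between untreated lines: parental SNU-6622 had 387.1 CPM of Oas3 and 83.7 CPM of Mx1, more than any resistant library.

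Among the 52 genes past 2-fold in opposite directions, 36 (0.273% of all genes) were higher in resistant SNU-6624 and lower in resistant SNU-6625, and 16 (0.121%) the reverse. Those described were named for the size of their divergence. Il33 (chr19:29925113-29960718), an alarmin stored in epithelial nuclei, had 106.2 and 247.9 CPM in SNU-6624 and 95.3 and 6.68 CPM in SNU-6625. The parental lines ran from 50.6 to 106.2 CPM, and each resistant library lay outside on its own side. Ltf, the iron-binding antimicrobial protein lactoferrin, had 184.2 and 1348 CPM in SNU-6624 and 173.5 and 59.7 CPM in SNU-6625. Here the parental lines already spanned 173.5 to 1569 CPM, so the resistant SNU-6624 value lay within them. Krt4, a keratin of moist stratified epithelium, had 1687 and 3729.6 CPM, and 1398 and 205.9 CPM. Its partner Krt13 had 109.3 and 311.6 CPM, and 21.2 and 4.06 CPM. For Upk1a, a membrane protein of urothelium, the differences were 1.47 and -3.42.

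Cftr, the chloride channel of bile duct and gut epithelium, had 38.9 and 90.7 CPM in SNU-6624 and 123.8 and 11.8 CPM in SNU-6625. Car12, a carbonic anhydrase, had 8.11 and 44.5 CPM, and 62.5 and 11.03 CPM. Gucy2c, the receptor for gut peptides that drive secretion, had 7.77 and 19.6 CPM, and 46.5 and 3.51 CPM. For these 3 genes parental SNU-6625 was above parental SNU-6624 and the order was turned in the resistant pair. In the lenvatinib-treated libraries the class of 36 genes had median differences of -1.71 and -2.45.

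Of the 16 genes of the reverse kind, Plet1, a surface protein of epithelial progenitors, had 10.96 and 3.84 CPM in SNU-6624 and 0.49 and 37.7 CPM in SNU-6625. Podxl, an apical sialomucin, had 20.5 and 3.46 CPM, and 4.53 and 27.9 CPM. Parental SNU-6621 held 47.7 CPM of Plet1 and 42.1 CPM of Podxl, above both resistant libraries. Ass1, a urea cycle enzyme and the main part of the hepatocyte marker sum, had 23.6 and 7.02 CPM, and 18.8 and 49.2 CPM.

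**Figure D5:**
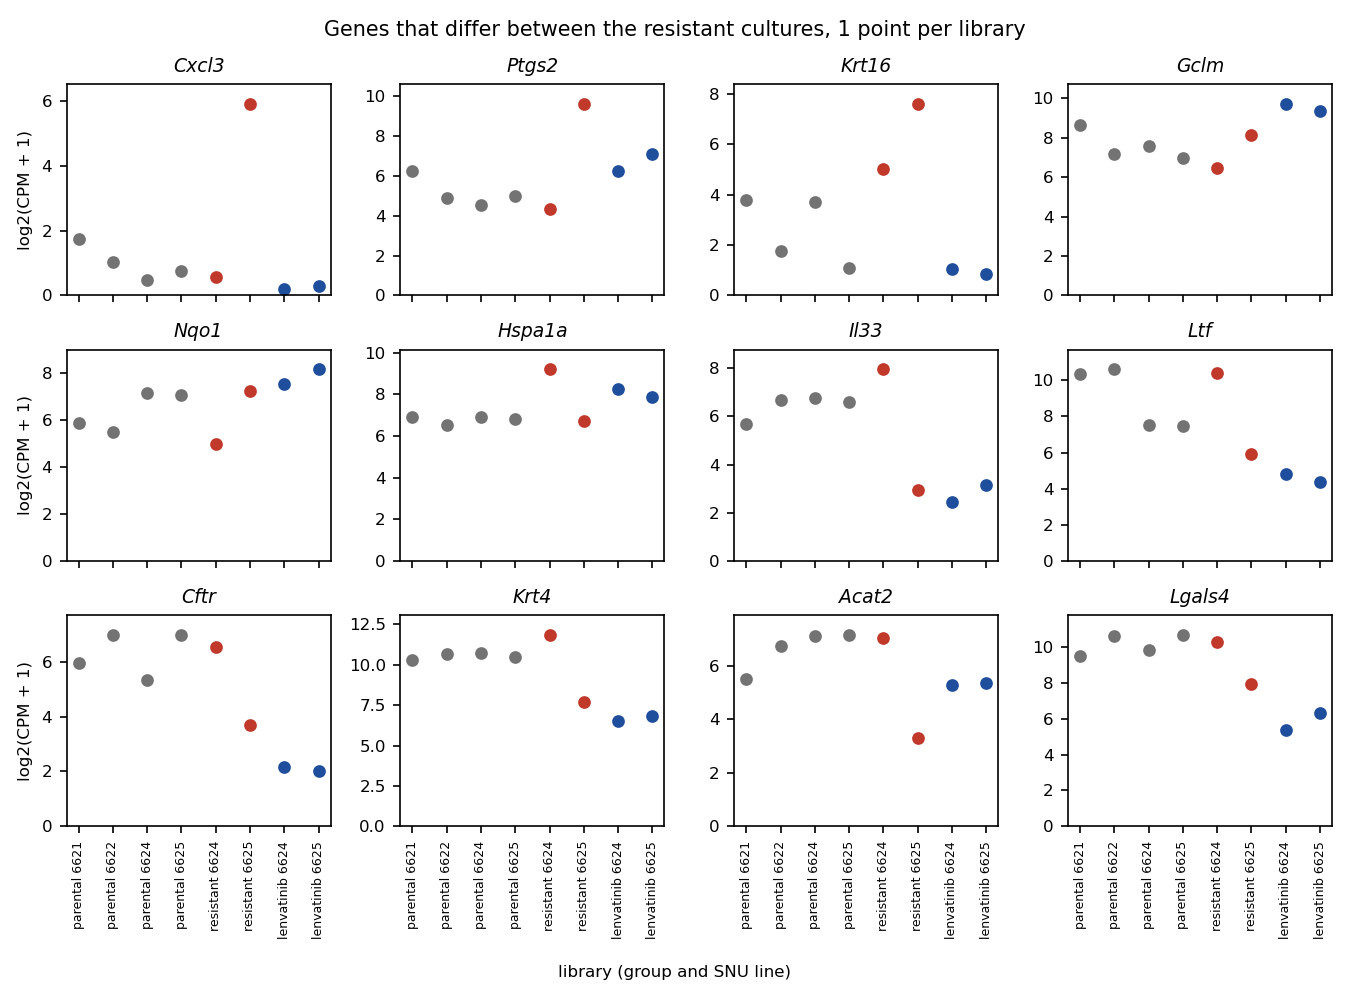
Level of 12 genes on the log2(CPM + 1) scale (y axis) in each of the 8 libraries (x axis), with parental libraries in grey, resistant in red and lenvatinib-treated in blue. Cxcl3, Ptgs2 and Krt16 are highest in resistant SNU-6625, and Il33 and Krt4 are highest in resistant SNU-6624, at 247.9 and 3729.6 CPM.

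Krt16, a keratin of injured skin, had 11.95 and 31.1 CPM in SNU-6624 and 1.14 and 194.4 CPM in SNU-6625, higher in both and 170.2-fold in the second. Krt6a and Krt6b, near-identical partners of Krt16 that may share reads, had differences of 3.26 and 3.13 in SNU-6625 and -0.35 and -0.81 in SNU-6624. Parental SNU-6621 had 408 CPM of Krt6a, more than the 237.2 CPM of resistant SNU-6625. Serpinb2, a protease inhibitor of stressed epithelium, had 0.596 and 3.76 CPM, and 0.102 and 63.7 CPM. Of 32 squamous and cornified envelope genes kept of 40, 7 were higher by 2-fold in SNU-6624 and 14 in SNU-6625, and 3 and 4 were lower. Over all genes 2.45% and 7.08% were higher and 3.36% and 14.9% lower, so the count lower in SNU-6625 is near the background.

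Intestinal genes were lower in resistant SNU-6625 than in its parental library. Of 19 kept of 30, 15 were lower by 2-fold there and 2 in SNU-6624, with medians of -1.74 and 0.26. Over all genes 14.9% and 3.36% were lower. In resistant SNU-6625, 9 of the 19 were below all 4 parental libraries, near the 43.8% of all genes. Lgals4, a gut galectin, had 901.3 and 1238 CPM in SNU-6624 and 1657 and 241.1 CPM in SNU-6625, and the lowest parental library had 726.5 CPM. Phgr1 had 30.8 and 41.8 CPM, and 50.2 and 3.13 CPM. Muc5ac, a gel-forming mucin of stomach and airway, had 190.7 and 138.5 CPM, and 74.4 and 0.59 CPM. The median divergence was -2.13. On a common reference, which leaves only the gap between the resistant libraries, it was -0.36.

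For 5 named genes the divergence came with a wide gap between the parental libraries. Reg3b and Reg3g, related antimicrobial lectin genes, had 47.4 and 23.9 CPM in parental SNU-6625. All 3 other parental libraries had at most 1.06 CPM of Reg3b and 2.08 CPM of Reg3g, and resistant SNU-6625 had 2 and 11 counts. Agr2, a helper of mucin folding, had 33.3 CPM in parental SNU-6625 and at most 1.8 CPM in the other parental lines, with 0 and 25 counts in the resistant libraries. Ces2a, a carboxylesterase, had 183.4 CPM in parental SNU-6625 against 3.18 CPM in parental SNU-6624, and 0.534 and 3.08 CPM in the resistant pair. Cdhr2, a cadherin of the brush border, had 48.6 CPM and 2.5 CPM in the parental pair, 20.4 CPM in parental SNU-6622, and 1.68 and 2.87 CPM in the resistant pair. For these 5 genes both resistant cultures were low, and of the parental pair SNU-6625 was the high one. The gap between the resistant libraries, SNU-6625 minus SNU-6624, had the opposite sign to the divergence, at 0.047, 0.24, 0.50, 1.41 and 0.53.

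Ribosomal protein and respiratory chain genes had negative medians in resistant SNU-6625, but few passed 2-fold: 4 of 43 and 4 of 30 were lower by 2-fold, no more than the 14.9% of all genes. All 43 cytosolic ribosomal protein genes differed by -1.26 to -0.21 in SNU-6625 and by -0.28 to 0.35 in SNU-6624. In resistant SNU-6625, 38 of 43 were below all 4 parental libraries, and in resistant SNU-6624 0 were, against 43.8% and 23.3% of all genes. With TMM factors the SNU-6625 median was -0.53 in place of -0.73. Nuclear genes of the respiratory chain had medians of 0.16 and -0.57, and with TMM factors 0.13 and -0.38. The 13 mitochondrially encoded genes had -0.72 and -0.27, the reverse order, with 12 and 4 of 13 below all parental libraries; the SNU-6625 count is under the share of all genes. With TMM factors the SNU-6625 median was -0.068.

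Some genes differed alike in both cultures, and division genes were not the only ones. Dbp, an output gene of the circadian clock, had 37.9 and 2.59 CPM in SNU-6624 and 43.4 and 1.82 CPM in SNU-6625. Arntl, which encodes the clock factor BMAL1, was higher in both, at 1.30 and 2.49, while Per1 stood at -0.88 and 0.70; the hour of harvest is not given in the sources used here. Aldh1l2, a mitochondrial folate enzyme, had -2.81 and -2.57. Lcn2, an iron-scavenging defence protein, had 7.07 and 67.3 CPM, and 4.94 and 232.8 CPM. Complement C3 had 4.26 and 32.3 CPM, and 1.49 and 89.98 CPM. Parental SNU-6621 held 432.7 and 451.6 CPM of these genes, above both resistant cultures. Tnfaip3, the NF-kB inhibitor A20, had differences of 2.08 and 2.78, and in this gene both resistant libraries, at 397.8 and 597.9 CPM, were above all parental ones, at 86.2 to 162.8 CPM.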

How the data were processed

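Poly(A) RNA-seq libraries were made with a stranded kit, per the labels' protocols. The authors deposited whole-number read counts per gene for each library, per the file headers. Per the submitters' processing notes the tools were Trimmomatic 0.38, StringTie 2.1.3b, HISAT2 2.1.0, FastQC 0.11.7 and Bowtie2 2.3.4.1, and the build was mm10, with the counting step and its strand setting not given in the sources used here. It is therefore not known whether overlapping genes on opposite strands were counted apart, and near-identical copies may share reads.

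Libraries were grouped by their labels. Counts were scaled to CPM by library total and set on log2(CPM + 1), which understates the change of low genes. Genes with a mean of at least 1 CPM over 4 libraries were kept, so a gene high in 1 library could pass through that library alone. A value of 0 was given a floor of 3 counts, which covers counting error only, since reads carry no molecular identifiers. Members, the 47 gene lists and the rules were chosen with earlier results of these data known. Named genes were the 8 of largest divergence per class (at least 20 CPM in 1 library), the 4 per list, lenvatinib targets and the 6 most alike in both cultures per direction; other named genes are marked as chosen after their values were seen, as were the promoters shown. The text gives part of these. Steps were tested on simulated data. TMM factors came from edgeR 4.0.16 in R 4.3.3, other steps from Python 3.11.15, and symbols were matched to RefSeq for 45679 genes. Alternatives were other scaling, pseudocounts, filters, fold limits and reference libraries. No library pair held identical counts; the closest pair, the lenvatinib-treated libraries, had a chi-square of 58.7 per gene.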

Additional observations from a re-analysis of the deposited data

Results flagged for a closer look

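The cultures differed past 2-fold in opposite directions for 12 genes named above, and the difference was not tested, since each direction rests on 1 resistant and 1 parental library. The divergence, SNU-6625 minus SNU-6624 on the log2(CPM + 1) scale, was -4.89 for Upk1a, -4.86 for Il33, -4.72 for Car12, -4.63 for Gucy2c, -4.49 for Cftr, -4.39 for Ltf, -3.90 for Krt4 and -3.64 for Krt13. It was 6.0 for Plet1, 4.66 for Podxl, 2.96 for Ass1 and 2.29 for Gclm.

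Among the 4 parental libraries, 1 library stood far from the other 3 for 16 of 145 levels examined (list medians and named genes, log2(CPM + 1)). Many of these genes were named for their divergence, which uses parental SNU-6624 and SNU-6625, and some named genes are members of the lists. No chance rate can therefore be set beside this count. Parental SNU-6621 was the distant library in 11 of them: it was low for fatty acid oxidation genes (4.72), clock genes (5.41), Il33 (5.69) and Mvd (4.91), and high for heat shock genes (7.02), gastric and secretory genes (6.02), Ass1 (6.19), Mmp13 (3.38), Hsph1 (6.03), Tgfb1 (6.28) and Flt1 (5.35). Parental SNU-6622 was high for interferon-induced genes (6.62) and low for the Notch pathway (5.42). Of the parental libraries that enter the divergence, SNU-6625 was high for Cyp1a2 (1.1) and Agr2 (5.1), and SNU-6624 was high for Akr1c14 (4.47).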

How the results depend on the processing

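No paired analysis was possible because the result comes from no test; each difference is already taken within a line. Leaving out replicates was not run, since each line and condition holds 1 library. With a pseudocount of 5 CPM, 1401 genes diverged, 691 and 22 were lower in SNU-6625 and SNU-6624 alone, 31 higher in SNU-6624 alone, 19 opposite, 128 and 75 lower and higher in both, and 850 had the gap in the resistant pair only; the mitosis and replication medians were -1.44 and -1.48. With 0.1 CPM, 110 were opposite and 234 higher in both, and the mitosis median was -3.87. With a minimum mean of 10 CPM, 1413 diverged, 681 were lower and 279 higher in SNU-6625 alone, 24 and 26 in SNU-6624 alone, 27 opposite, 151 lower in both and 938 with the gap in the resistant pair. At a fold minimum of 1.5, the counts were 2610 and 1088 for SNU-6625 alone (lower, higher), 274 and 484 for SNU-6624 alone, 226 opposite, and 830 and 543 in both. At a fold minimum of 4, they were 232, 78, 5, 3, 2, 26 and 10 in the same order. A limit of 0.25 for the other line gave 640, 246, 29 and 47 for the classes of 1 culture. A limit of 1 gave 771 higher in SNU-6625 alone, and 122 lower and 140 higher in SNU-6624 alone. Median-of-ratios scaling gave 745 higher in SNU-6625 alone. TMM scaling put 45.0% of divergent genes on the higher side and median-of-ratios 48.3%, against 28.6%; of the 1141 genes lower in SNU-6625 alone, 805 and 751 were still in that class. With the mean of the 4 parental libraries as reference for both cultures, 127 genes were lower in SNU-6624 alone. The parental libraries then cancel and the divergence equals the gap between the resistant libraries, so by construction the 2427 genes past 2-fold have their gap there. That reference also changed the sign of the median divergence of acute phase genes (0.23) and of the lenvatinib targets (-0.053), of Reg3b (0.047), Reg3g (0.24), Cdhr2 (0.53), Agr2 (0.50), Fgfr3 (-0.053) and Ces2a (1.41), and of Cxcl5 in SNU-6624 (-0.43). No other value of at least 1 in size changed its sign among the lists and named genes under these settings. Smaller values could: the SNU-6625 median of the efflux pumps was -0.16 on plain totals and 0.035 with TMM factors. Of 47 median divergences, 25 moved by at least the SD over the parental lines with median-of-ratios scaling and 17 with TMM. With a pseudocount of 5 CPM, 25 named genes moved by that much and 72 did not. The cause of these shifts was not tested. At about 50 to 60 M counts, depth limits only the lowest levels, and the single library per condition limits every comparison.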

Other observations

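A few genes not described above were also apart in the resistant cultures. Ctsl, a lysosomal protease, had 66.7 and 148.4 CPM in parental and resistant SNU-6624 and 81.02 and 769.1 CPM in SNU-6625, where the other parental lines had 164.2 and 176.5 CPM. Sqstm1, the autophagy receptor p62, had 248.9 and 314.3 CPM, and 223 and 873.2 CPM. Over 25 lysosome and autophagy genes the medians were 0.10 and 0.37, and in SNU-6625 2 were higher and 1 lower by 2-fold, against 7.08% and 14.9% of all genes, so that list as a whole was near or under the background. Cldn4, a tight junction claudin, was higher by over 2-fold in both cultures, at 1.51 and 2.59.

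Wnt7a, a Wnt ligand gene, had 2.48 and 3.78 CPM in SNU-6624 and 1 and 15.6 CPM in SNU-6625. Wnt10a had 2.47 and 2.02 CPM, and 0.673 and 5.47 CPM, and parental SNU-6621 had 14.2 CPM, above both resistant cultures. Ccn2, a matrix protein induced by YAP and TGF-beta, had 125.4 and 234.9 CPM, and 221.4 and 71.3 CPM, while Ankrd1, another YAP target, was higher in both, at 2.03 and 4.08. Tgfb1, the cytokine gene, was at -0.89 and 1.28. Bcl2, the survival gene, was lower in resistant SNU-6625 alone, at 0.32 and -1.48.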
